A study of Mus musculus with 66 samples.

Results

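Lifr, Il6st, Jak1, Jak2, Stat3, Socs2 and Socs3 encode the receptor chains, kinases, transcription factor and inhibitors through which cytokines of the leukaemia inhibitory factor (LIF) family signal. They were taken by symbol from the expression table of ventral spinal cord progenitors, 7 of its 24410 genes. All 7 had a normalised read count of at least 10 in each of the 66 libraries, so none was lost to the filter on low values. A normalised read count is the number of reads on a gene divided by the size factor of its library.

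In this pathway LIF or ciliary neurotrophic factor (CNTF) brings the LIF receptor together with gp130, the shared signal transducer that Il6st encodes. JAK kinases held by these receptors phosphorylate STAT3, which enters the nucleus and raises its target genes, among them Socs3, whose product damps the same receptors. In the embryonic cortex and spinal cord the pathway is known for switching on astrocyte genes such as Gfap in progenitors that have become competent to make glia.

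The progenitors were differentiated from mouse embryonic stem (ES) cells, fixed with glyoxal, stained inside the cell and sorted, with 10000 to 15000 cells in a population, and their polyadenylated RNA was sequenced. MUT cells were sorted from the gate labelled NFIAn on every day, giving 9 libraries at D5, 9 at D7, 5 at D9 and 6 at D11. WT cells from the NFIAn gate gave 8 libraries at D5, 9 at D7 and 8 at D9. WT cells from the gate labelled NFIAp gave 6 libraries at D9, from p2 and pM, and 6 at D11. NFIA, the protein in the name of both gates, is a transcription factor of early gliogenesis. Each day was divided into the domains p1, which the series description calls p0-p1, p2 and pM, the progenitors of ventral interneurons and of motor neurons. Every group went through the same culture, with 10 ng/ml bFGF at plating, 5 µM of the GSK3 inhibitor CHIR99021 at day 2, and 100 nM retinoic acid plus 10 nM of the Smoothened agonist SAG at day 3. From day 5 retinoic acid was left out and SAG was kept. Neither the gene changed in MUT nor the ES cell line is named in the labels, so the mutation could not be checked in the libraries. The labels do not say whether libraries are separate cultures, so p-values measure the spread between these libraries, which may be technical. At D11 the genotype and the gate cannot be told apart, since every MUT library is NFIAn and every WT library NFIAp. Within WT, day and gate cannot be told apart between D11 and D5, whose libraries are NFIAn. In sorted bulk samples, fewer cells of a type and less RNA per cell cannot be told apart either.

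Libraries held 8.74 to 30.8 megareads, with a median of 24.3. The 18 libraries numbered 3 at D7 and 2 or 3 at D9 stood apart, with normalised sums of 26.6 to 40.2 megareads, against 17.9 to 25.5 megareads in the other 48. Over the 13 groups that hold libraries of both kinds, Stat3 was lower in the high-total libraries than in every other library of the group in all 13, with a median log2 difference of -1.37. The median log2 difference was -0.75 for Il6st, -0.72 for Socs3, -0.48 for Jak1 and for Jak2, -0.26 for Socs2 and -0.08 for Lifr. All 18 belong to D7 and D9, so they enter the means of each comparison that uses those days. For each gene the fit shares an estimate of spread over all 66 libraries. The 18 therefore also enter the intervals and p-values of the other comparisons. Without them each WT group of D9 keeps replicate 1 alone. The listed markers of neural progenitors summed to normalised counts of 14620 to 218900 in every library, and the 5 markers of each gate had their highest median sum in the matching domain. The 12 listed neuronal genes summed to medians of 34450 in MUT and 29980 in WT at D11, against 3129 in MUT and 3898 in WT at D5, and all 12 were called higher at D11 in both genotypes. For the 12 mesenchymal genes the medians were 3536 in MUT and 3497 in WT at D11, against 560.8 in MUT and 492.9 in WT at D5, with 7 called higher and 1 lower in each genotype. The 10 listed genes of pluripotent cells summed to medians of 82.26 in MUT and 219.7 in WT at D11, against 147.6 in MUT and 109.6 in WT at D5. Their sum was at most 730.8 in any library, and 1 of the 10 was called higher at D11 in WT. The listed endothelial and blood genes summed to no more than 112.6 in any library. The part of neuronal, mesenchymal and pluripotent-cell RNA in the changes over time below was not tested.

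Per kilobase of exon, which allows levels to be compared between genes, Socs3 had the highest median over the 66 libraries at 142 normalised reads per kb. Jak1 followed at 126 and Socs2 at 114, then Jak2 at 59.0, Lifr at 41.9 and Stat3 at 37.6. Il6st, the shared receptor chain, was lowest at 17.1. Ranked by their mean in the 26 groups, neighbouring groups mostly overlapped. Of 25 neighbouring pairs, all 25 overlapped for Jak1, 24 for Il6st, Jak2 and Socs3, and 23 for Lifr, Stat3 and Socs2. The 6 highest means of Stat3 were those of the 6 groups of D11, as were the 5 highest of Lifr. The lowest mean of Lifr was in MUT D5 p1, at 161, and that of Stat3 in the single library of MUT D9 p2, at 157.

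**Figure D1:**
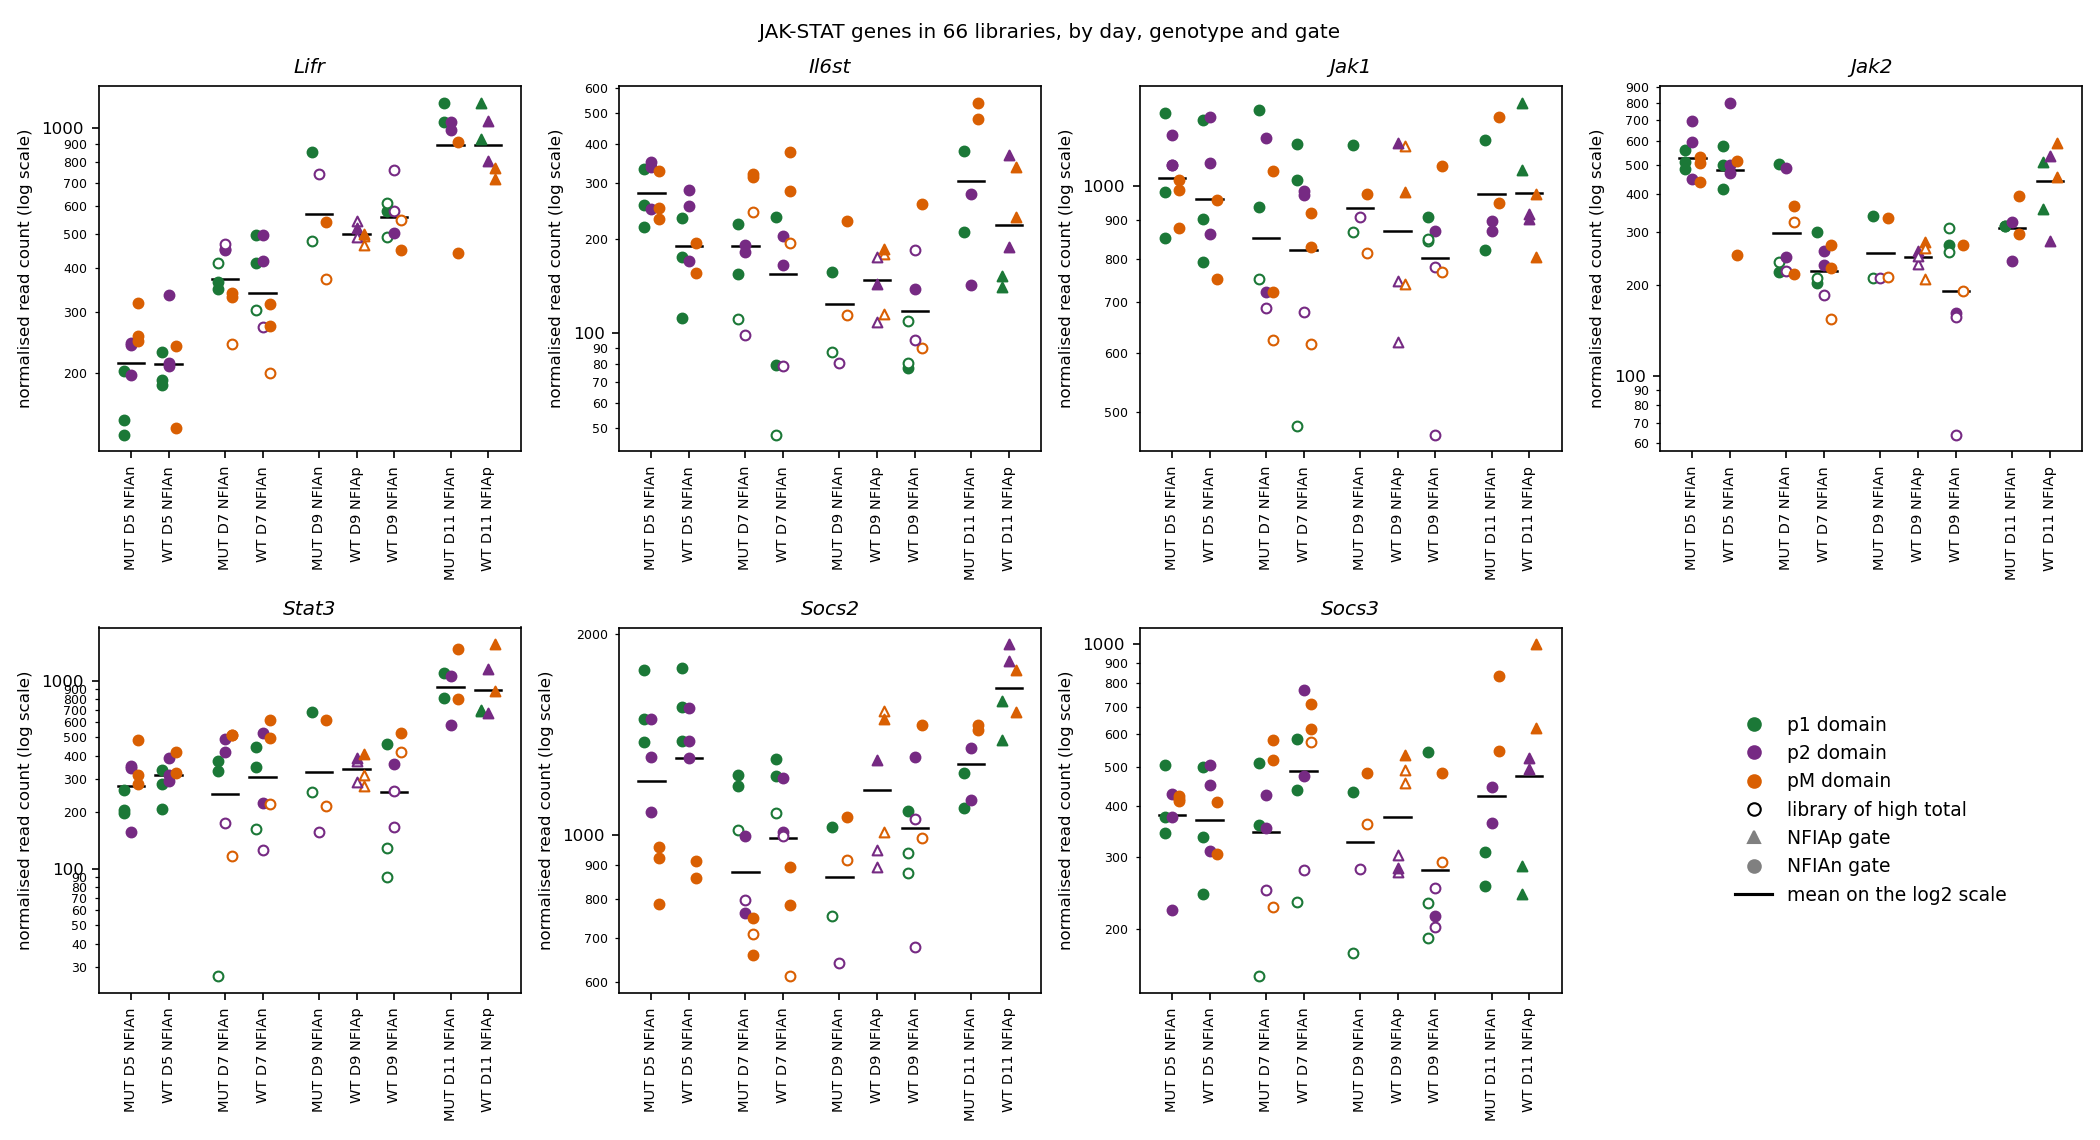
Normalised read count (log axis) of each JAK-STAT gene in every library, by day, genotype and gate, with domains in colour, NFIAp libraries as triangles and the 18 libraries of high total as open symbols. Lifr climbs with the day in both genotypes, from medians of 241 in MUT and 212 in WT at D5 up to 1014 and 871 at D11, while Stat3 has its highest medians at D11, 932 in MUT and 791 in WT, and is low in the open symbols.

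Between D11 and D5, averaged over the domains, Lifr and Stat3 were called higher in both genotypes, Socs2 higher in WT, and Jak2 lower in MUT. In MUT cells 3 of the 7 genes were called, where 46.0% of all genes tested were. In WT cells 3 of the 7 were called, all higher, where 48.0% of all genes tested were. A gene was called when its Benjamini-Hochberg adjusted p over all 15714 genes tested was under 0.05 in limma. The share of pathway genes called was thus near that of all genes. The median log2 difference of the 7 was 0.13 in MUT and 0.36 in WT, against 0.02 in MUT and 0.04 in WT over all genes.

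Lifr encodes the LIF receptor, the chain that makes a gp130 complex responsive to LIF and, with a further chain, to CNTF. The gene lies on the plus strand at chr15:7090614-7197489 (GRCm38). At D11 its normalised counts were 1178 and 1040 in MUT p1, 989 and 1043 in MUT p2, and 441 and 917 in MUT pM. At D11 in WT they were 1184 and 934 in p1, 808 and 1047 in p2, and 772 and 718 in pM. The D5 libraries lay between 134 and 317 in MUT and between 140 and 334 in WT. Every D11 library was therefore above every D5 library of either genotype, and MUT pM replicate 2 was the lowest of D11. The log2 difference was 2.06 ± 0.17 (SE) in MUT, a 4.17-fold rise with a 95% interval of 3.31 to 5.24 (limma adjusted p = 1.28e-14). In WT it was 2.10 ± 0.17, a 4.28-fold rise with an interval of 3.37 to 5.42 (limma adjusted p = 1.78e-14). Within the WT domains the log2 rise of Lifr was 2.38 ± 0.29 for p1, 1.89 ± 0.29 for p2 and 2.02 ± 0.31 for pM, and each was called. In pM that call rests on the spread shared by all groups, since a fit on the compared libraries alone gave an adjusted p of 0.0575.

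Il6st encodes gp130, and its values at D11 and D5 overlapped. The gene lies on the plus strand at chr13:112464070-112510086. Its counts at D11 ran from 143 to 540 with a median of 328 in MUT and from 140 to 368 with a median of 211 in WT. At D5 they ran from 218 to 350 with a median of 255 in MUT and from 112 to 285 with a median of 184 in WT. The log2 difference of D11 to D5 was 0.13 in MUT, with a 95% interval of -0.44 to 0.69, and 0.23 in WT, with an interval of -0.35 to 0.82. Neither passed the test (limma adjusted p = 0.738 and 0.536), and the intervals leave room for a change of up to 1.76-fold in WT.

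Jak1, at chr4:101152367-101265282 on the minus strand, encodes the kinase most closely tied to gp130. It had medians of 923 in MUT and 945 in WT at D11, against 1018 in MUT and 929 in WT at D5. Its log2 difference of D11 to D5 was -0.07 in MUT (95% interval -0.42 to 0.28) and 0.05 in WT (-0.31 to 0.41). Exons of Jak1 overlap those of Raver2 on the opposite strand, so reads in the overlap cannot be told apart unless strand was used in counting, which is not given in the sources used here.

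Jak2, at chr19:29251828-29313080 on the plus strand, encodes a kinase shared with the growth hormone and erythropoietin receptors. Its counts at D11 were 312 and 314 in MUT p1, 322 and 239 in MUT p2, and 294 and 392 in MUT pM. In WT at D11 they were 509 and 356 in p1, 532 and 280 in p2, and 591 and 456 in pM. D5 medians were 509 in MUT, with a range of 438 to 694, and 499 in WT, with a range of 250 to 801. All 6 MUT libraries of D11 thus lay below all 9 of D5, while the WT days overlapped. In MUT the log2 difference was -0.76 ± 0.22 (limma adjusted p = 0.00311). In WT it was -0.08, with a 95% interval of -0.53 to 0.37 (limma adjusted p = 0.789). The difference between these changes was -0.68 on the log2 scale, with an interval of -1.30 to -0.06, and did not pass the test over all genes (limma adjusted p = 0.503).

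Stat3 encodes the transcription factor at the end of the cascade and lies at chr11:100885098-100939540 on the minus strand. Its D11 counts were 806 and 1097 in MUT p1, 578 and 1057 in MUT p2, and 798 and 1483 in MUT pM. The WT libraries of D11 had 691 and 700 in p1, 673 and 1151 in p2, and 882 and 1565 in pM. At D5 Stat3 ranged from 158 to 484 in MUT and from 208 to 420 in WT. No D11 library overlapped D5 in either genotype. The log2 difference was 1.75 ± 0.41 in MUT, a 3.37-fold rise (limma adjusted p = 0.000399), and 1.48 ± 0.42 in WT, a 2.8-fold rise with a 95% interval of 1.55 to 5.05 (limma adjusted p = 0.00323). Within single WT domains the log2 difference was 1.36 for p1, 1.42 for p2 and 1.67 for pM, and none of these passed (limma adjusted p = 0.155, 0.141 and 0.129). Without the 18 high-total libraries the same 3 differences had adjusted p-values of 0.00444, 0.00354 and 0.00226. A fit on the compared libraries alone gave 0.0392, 0.0322 and 0.0861. Exons of Stat3 overlap exons of Stat5a on the opposite strand. Stat5a was at 21.4 ± 23.5 in MUT and 8.84 ± 9.11 in WT at D11 (SD, n = 6 each), far under Stat3.

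**Figure D2:**
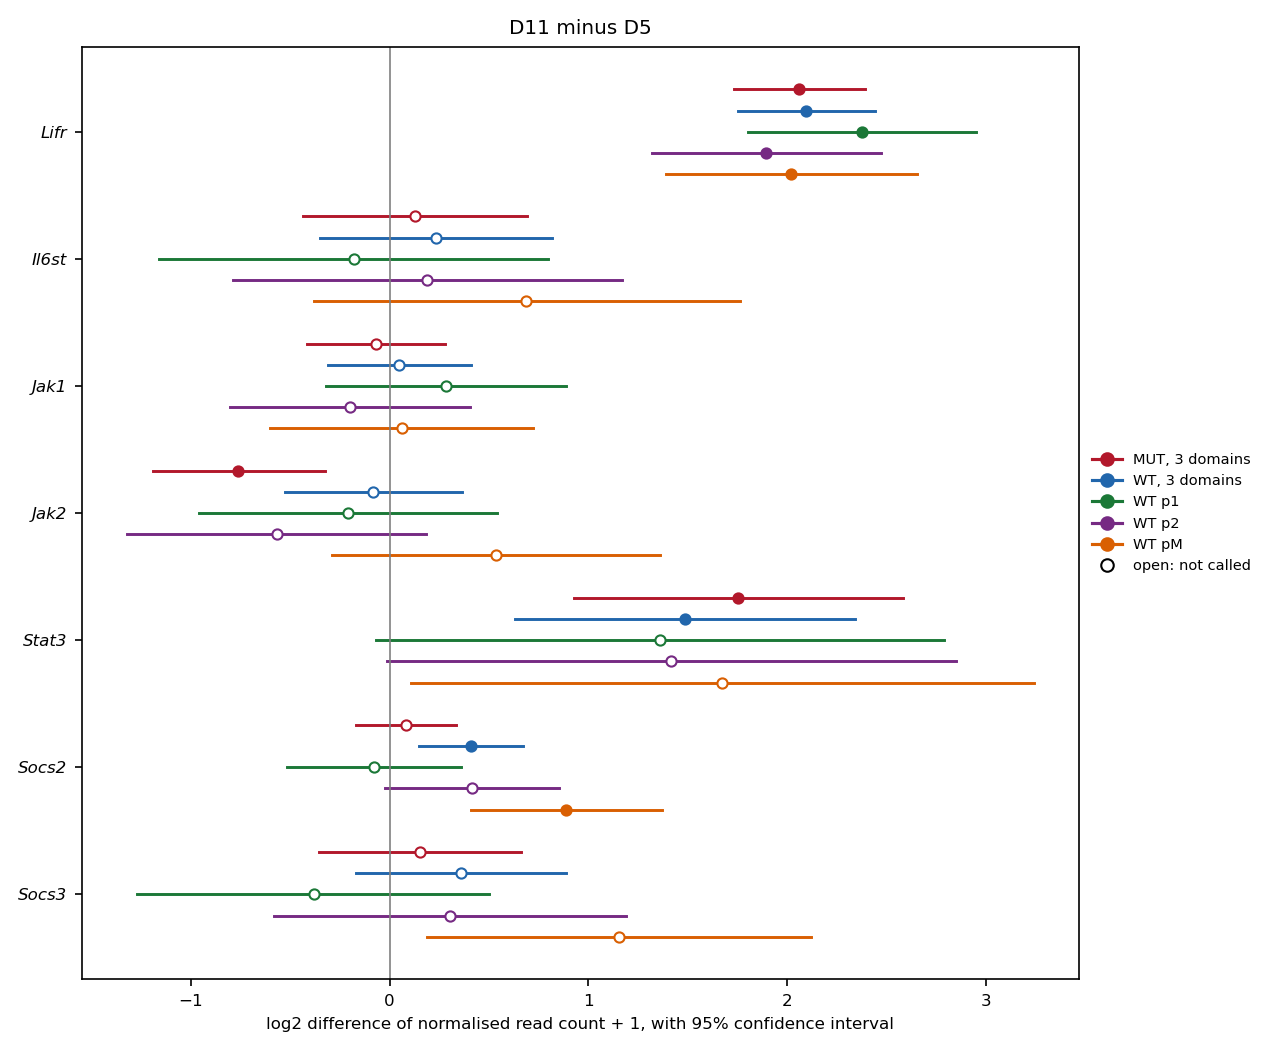
Log2 difference of D11 to D5 for each JAK-STAT gene with its 95% confidence interval, in MUT and WT over the 3 domains and in each WT domain; filled points were called in limma. Lifr is filled in all 5 rows, with values from 1.89 to 2.38, Stat3 in the 2 rows over all domains, Socs2 in WT and WT pM, and Jak2 only in MUT at -0.76.

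Socs2 encodes an inhibitor best known for damping growth hormone signalling, and lies at chr10:95385362-95417180 on the minus strand. Its D11 counts were 1096 and 1239 in MUT p1, 1348 and 1128 in MUT p2, and 1437 and 1459 in MUT pM. In WT at D11 they were 1585 and 1386 in p1, 1825 and 1932 in p2, and 1526 and 1766 in pM. At D5 they ran from 786 to 1768 in MUT and from 860 to 1782 in WT, with every pM library under 960 and every p1 and p2 library over 1080. Over all domains D11 and D5 overlapped in both genotypes, and within WT the days were apart in p2 and pM. Within MUT they were apart in pM, where D11 was higher (1437 and 1459 against 786 to 958). They were also apart in MUT p1, where D11 was lower (1096 and 1239 against 1379 to 1768). The MUT mean over the domains thus joins changes of opposite sign, and the MUT domains were not tested singly. Over the 3 domains the log2 difference of D11 to D5 was 0.08 in MUT (95% interval -0.17 to 0.34) and 0.41 ± 0.13 in WT (limma adjusted p = 0.00787). By WT domain it was -0.08 for p1, 0.41 for p2 and 0.89 ± 0.24 for pM, where it was called (limma adjusted p = 0.00484). Leaving out WT D11 pM replicate 3 brought the pM difference to 0.78 and ended its call (adjusted p = 0.0646).

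Socs3, the feedback inhibitor of gp130 and a known STAT3 target, lies at chr11:117966079-117970047 on the minus strand. The RefSeq promoter windows of Socs3 and Stat3 are shown because both genes are known targets of STAT3. Each runs 5′ to 3′ from 250 bases before the annotated start to 50 bases after it, on the minus strand of GRCm38.p6, and capitals mark the letters TTCNNNGAA, the palindrome that STAT dimers bind.
Socs3, chr11:117969317-117969616: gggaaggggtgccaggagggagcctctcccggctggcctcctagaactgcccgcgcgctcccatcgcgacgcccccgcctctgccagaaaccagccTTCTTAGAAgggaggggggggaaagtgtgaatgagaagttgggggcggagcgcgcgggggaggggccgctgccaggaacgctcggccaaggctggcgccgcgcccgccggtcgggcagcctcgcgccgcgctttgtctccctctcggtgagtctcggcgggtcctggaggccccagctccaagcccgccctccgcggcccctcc
Stat3, chr11:100939491-100939790: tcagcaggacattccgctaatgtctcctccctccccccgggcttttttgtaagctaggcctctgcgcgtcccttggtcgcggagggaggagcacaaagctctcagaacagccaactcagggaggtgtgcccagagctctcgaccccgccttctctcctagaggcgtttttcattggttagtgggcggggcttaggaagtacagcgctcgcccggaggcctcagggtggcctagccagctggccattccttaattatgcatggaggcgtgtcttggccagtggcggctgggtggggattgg
The Socs3 window holds 1 match, TTCTTAGAA, which begins 154 bases before the start that RefSeq annotates. That window lies wholly inside the GENCODE span of Socs3, so the match is downstream of the GENCODE start at 117970047. The Stat3 window holds none, nor do those of Il6st, Jak1 and Jak2 or the 2 windows listed for Lifr. Both Lifr windows, which begin at chr15:7129322 and chr15:7140292, also lie inside the GENCODE span of that gene. Of all 32851 RefSeq promoter windows of this length, 8.30% hold the motif, which reads the same on both strands. A match is a description of letters and not a bound site.

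At D11 Socs3 had 255 and 308 normalised counts in MUT p1, 364 and 446 in MUT p2, and 547 and 833 in MUT pM. In WT at D11 it had 286 and 243 in p1, 525 and 495 in p2, and 623 and 999 in pM. At D5 the libraries ran from 223 to 505 in MUT and from 243 to 504 in WT. At D11 every pM library was above every p1 and p2 library in both genotypes. The log2 difference of D11 to D5 was 0.15 in MUT (95% interval -0.36 to 0.66) and 0.36 in WT (-0.17 to 0.89), and neither was called. By WT domain it was -0.38 for p1, 0.30 for p2 and 1.16 for pM, where the adjusted p was 0.083 in limma. Without the 18 high-total libraries the pM difference was unchanged in size and had an adjusted p of 0.0106.

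Counted by WT domain, 1 of 7 was called in p1, where 27.7% of all genes were, 1 in p2, where 25.8% were, and 2 in pM, where 20.4% were. Without the 18 high-total libraries these counts were 2, 2 and 4. Over all genes the counts rose as well, from 4360, 4051 and 3205 to 5558, 5239 and 4284. An F test of whether the D11 to D5 change was equal in the 3 WT domains called 0 of the 7, where it called 0.891% of all genes. Socs2 came nearest, with an unadjusted p of 0.0161 and an adjusted p of 0.435, and was the only one of the 7 under 0.05 unadjusted.

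The steps between days in WT were compared next, where that from D7 to NFIAp cells of D9 changes both day and gate. At D7 against D5, Jak2 was lower, Socs2 was lower and Lifr was higher, 3 of 7 called where 19.6% of all genes were. Without the 18 high-total libraries 3 were called as well, where 2516 of all genes were, but Socs3 (0.67, adjusted p = 0.0107) in place of Socs2. In NFIAn cells of D9 against D7, Lifr was again higher and Socs3 lower, 2 of 7 called where 14.4% of all genes were. In NFIAp cells of D9 against D7, within p2 and pM, Lifr alone was called, 1 of 7 where 14.8% of all genes were. Socs2 had 0.38 at this step (limma adjusted p = 0.0551). Without the high-total libraries, with replicate 1 alone in each D9 group, Lifr lost its call and the Socs2 difference was 0.53. DESeq2 called both genes (adjusted p = 0.0302 for Socs2). At D11 against NFIAp cells of D9, within p2 and pM, Stat3, Jak2, Lifr and Socs2 were higher, 4 of 7 called where 10.1% of all genes were. When libraries sharing genotype, day and number were allowed a correlation, estimated at 0.375, Socs2 alone of these 4 stayed called (adjusted p = 0.0257). The adjusted p was then 0.0562 for Stat3, 0.0583 for Lifr and 0.0797 for Jak2, and 842 of all genes were called.

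Lifr was called at each of the 4 steps, and whether the steps were of equal size was not tested. Its WT medians were 212 at D5, 315 at D7, 564 at D9 in NFIAn cells and 871 at D11, with 496 in the NFIAp cells of D9. Here and below, medians of NFIAp cells of D9 cover p2 and pM only, and the others p1 as well. The log2 difference was 0.70 ± 0.15 for D7 minus D5 (limma adjusted p = 0.000746) and 0.70 ± 0.15 for NFIAn cells of D9 minus D7 (0.00109). It was 0.67 ± 0.18 for NFIAp cells of D9 minus D7 (0.00793) and 0.72 ± 0.20 for D11 minus NFIAp cells of D9 (0.0142). All 4 WT D11 libraries of p2 and pM were above all 6 NFIAp libraries of D9. Without the 18 high-total libraries the first difference was 0.91 and kept its call (adjusted p = 0.000138). The other 3 differences were then 0.37, 0.48 and 0.70 and none kept its call, with replicate 1 alone in each D9 group. The last step also lost its call without WT D11 p2 replicate 3 or WT D11 pM replicate 2 (adjusted p = 0.0996 and 0.0576). MUT medians ran alongside, at 241, 365, 540 and 1014 on the 4 days.

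Stat3 was called at the last step only. Its WT medians were 318 at D5, 346 at D7, 311 and 344 in the NFIAn and NFIAp cells of D9, and 791 at D11. In MUT they were 281, 375, 257 and 932. The log2 difference was -0.05 for D7 minus D5 (95% interval -0.82 to 0.71), -0.17 for NFIAn cells of D9 minus D7 (-0.94 to 0.60) and 0.09 for NFIAp cells of D9 minus D7 (-0.81 to 1.00). For D11 minus NFIAp cells of D9 it was 1.59 ± 0.50, a 3.01-fold rise (limma adjusted p = 0.0324), with all 4 D11 libraries above all 6 of D9. Leaving out any of 5 single libraries raised this adjusted p to between 0.0539 and 0.164, and allowing the correlation between libraries raised it to 0.0562. Without the high-total libraries this last difference was 1.36, with replicate 1 alone in each D9 group. The high-total libraries also enter the D7 and D9 means of the earlier steps. In WT at D7 they had the lowest Stat3 count of each domain, at 163 in p1, 125 in p2 and 221 in pM. The highest counts there were 442, 526 and 616. The small differences of the earlier steps thus include libraries low in Stat3.

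Jak2 had its lowest medians at D7 and D9. In WT they were 499 at D5, 227 at D7, 224 and 254 in the NFIAn and NFIAp cells of D9, and 482 at D11. The difference of D7 to D5 was -1.06 ± 0.20 on the log2 scale (limma adjusted p = 9.39e-05). That of D11 to NFIAp cells of D9 was 0.85 ± 0.26 (limma adjusted p = 0.0285). Leaving out any of 4 single libraries ended that call. Leaving out the 18 of high total, with replicate 1 alone in each D9 group, ended it as well. In MUT the medians were 509, 247, 212 and 313, with all D11 libraries of MUT under those of its D5.

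Socs2 was lower at D7 than at D5 (-0.34 ± 0.12, limma adjusted p = 0.0344), a call that 8 of 17 single libraries ended when left out (adjusted p = 0.0535 to 0.0964). The call was also lost with correlated libraries (0.136) and without the 18 of high total (-0.24, adjusted p = 0.105). It was higher at D11 than in NFIAp cells of D9 (0.59 ± 0.15, limma adjusted p = 0.00852), a call lost without WT D11 pM replicate 3 (0.0578) and in a fit on the compared libraries alone (0.0668). That difference was 0.34 and not called without the 18 high-total libraries, with replicate 1 alone in each D9 group. Socs3 had a WT median of 573 at D7 and 242 in NFIAn cells of D9, both over p1, p2 and pM. Its median of 380 in NFIAp cells of D9 is over p2 and pM only. Within p2 and pM its D9 means were 390 in NFIAp and 305 in NFIAn cells. The log2 difference of NFIAn cells of D9 to D7 was -0.75 ± 0.24 (limma adjusted p = 0.0242). Leaving out any of 5 single libraries ended that call. Correlated libraries (limma adjusted p = 0.106) and a fit on the compared libraries alone (0.101) ended it too. So did leaving out the 18 of high total, with replicate 1 alone in each D9 group. At the last step Il6st and Socs3 had log2 differences of 0.87 and 0.75 with adjusted p-values of 0.0985 and 0.118, and within each domain their D11 libraries lay above those of D9.

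**Figure D3:**
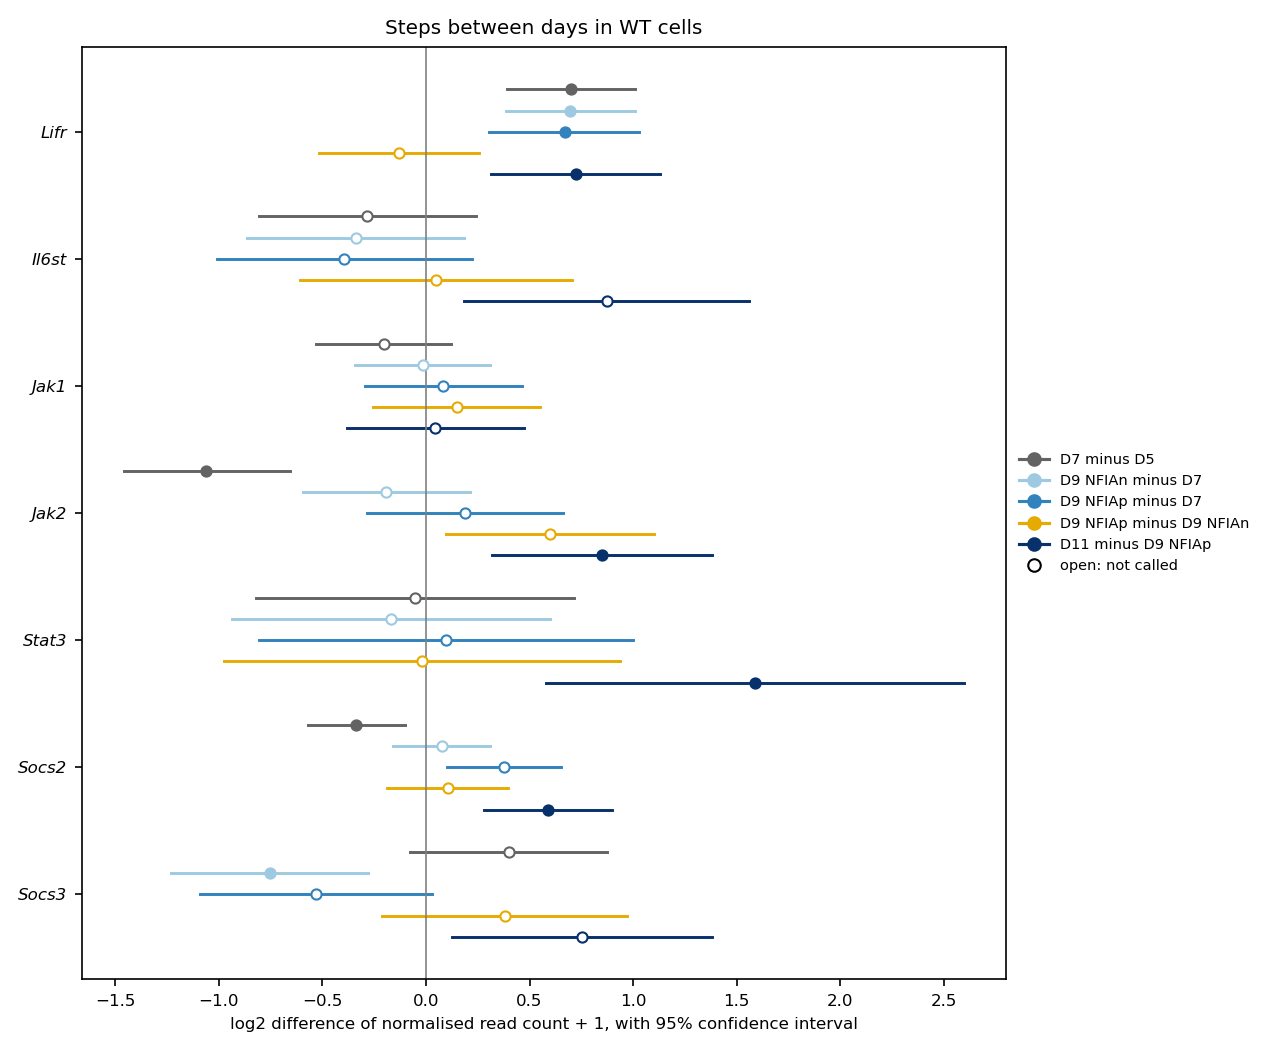
Log2 difference with its 95% confidence interval for the steps between days in WT cells and for the NFIAp and NFIAn gates at D9; filled points were called in limma. Lifr is filled at each step at 0.67 to 0.72, Stat3 at the last step only at 1.59, Jak2 at the first at -1.06 and the last at 0.85, and no gene is filled for the gates.

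The gate itself could be compared within D9, in the p2 and pM cells of WT. In pM the high-total libraries were unevenly shared, replicates 2 and 3 beside replicate 1 in NFIAp, and replicate 3 beside replicate 1 in NFIAn. The pM values thus mix the gate with this set. Of the 7 genes 0 were called between NFIAp and NFIAn cells, where 0.204% of all genes were. Jak2 had the largest log2 difference at 0.60 (95% interval 0.09 to 1.10, limma adjusted p = 0.468) and was the 1 gene of the 7 with an unadjusted p under 0.05. The other 6 lay between -0.13 for Lifr and 0.38 for Socs3. For Lifr the interval was -0.52 to 0.26, and for Stat3, at -0.02, it was -0.98 to 0.94. NFIAp libraries had Nfia RNA at a median of 570 with a range of 408 to 2305, against a median of 226 with a range of 77.8 to 670 in all NFIAn libraries of WT at D9. DESeq2 and edgeR on the recovered reads also called 0 of the 7.

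MUT and WT cells were compared on each day. At D9 the high-total libraries were unevenly shared, since MUT has no replicate 2 and MUT p2 is replicate 3 alone, a high-total library. By limma 0 of 7 genes were called at D5, where 0.458% of all genes were, at D7 0 where 2.03% were, at D9 in NFIAn cells 0 where 0.700% were, and at D11 0 where 4.14% were. For the 3 genes of the pathway that are called over time in WT, the D11 difference of MUT to WT was -0.00 for Lifr (95% interval -0.37 to 0.36), 0.05 for Stat3 (-0.85 to 0.96) and -0.38 for Socs2 (-0.65 to -0.10), all on the log2 scale. These intervals bound a difference of Lifr to between 0.78-fold and 1.28-fold, and one of Stat3 only to between 0.55-fold and 1.94-fold. Nfia RNA was at 1014 to 2177 normalised counts in MUT at D11, against 1096 to 3639 in WT at D11, although the MUT cells are labelled NFIAn.

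Socs2 was lower in MUT than in WT within every domain at D11, with no overlap, its 6 MUT libraries averaging 1284 ± 155 and its 6 WT libraries 1670 ± 205 (SD). Its limma adjusted p was 0.115, from an unadjusted p of 0.00848, so it did not pass over all genes. Without the 18 high-total libraries the same difference was called (adjusted p = 0.0257), and with correlated libraries its adjusted p was 0.469. At D9 in NFIAn cells the log2 difference of Socs2 was -0.34 (unadjusted p = 0.0199, adjusted p = 0.389), at D7 -0.17 and at D5 -0.05.

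Other differences with an unadjusted p under 0.05 were Jak2 at D11 (-0.51, adjusted p = 0.242) and at D7 (0.41, 0.315), Socs3 at D7 (-0.49, 0.309) and Il6st at D5 (0.57, 0.574). Jak2 thus had values of opposite sign on 2 days, and none of these passed. The D11 to D5 change itself was compared between genotypes, and 0 of 7 genes were called by limma, where 0.770% of all genes were, with Jak2 alone under 0.05 unadjusted (0.0331). That difference of changes was -0.04 for Lifr (95% interval -0.52 to 0.44) and 0.27 for Stat3 (-0.92 to 1.46). On the recovered reads, edgeR and DESeq2 called 0 of 7 genes in each of these 5 comparisons too.

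**Figure D4:**
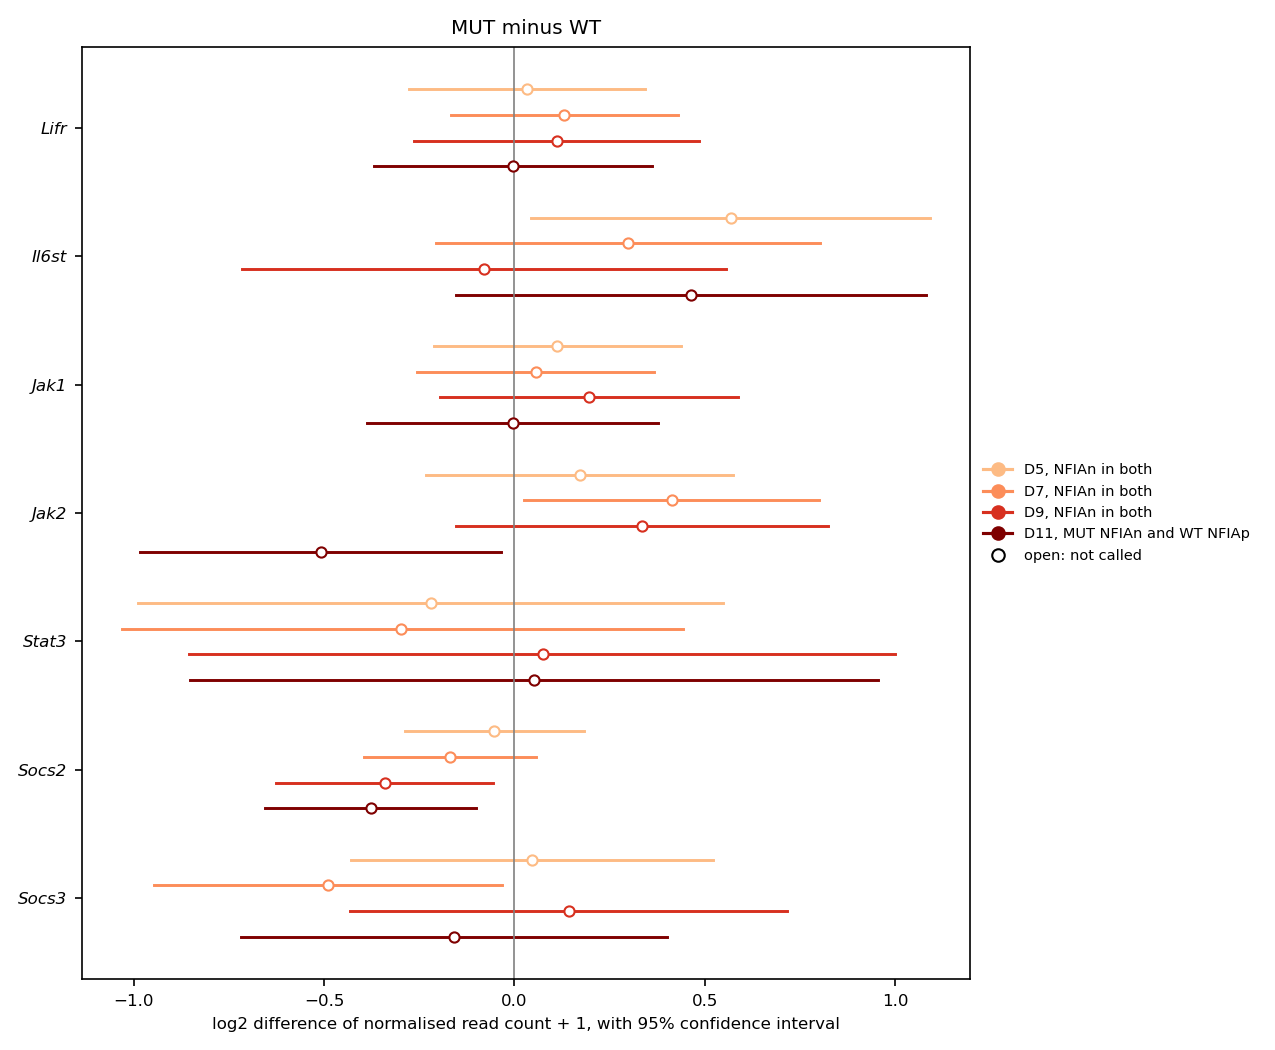
Log2 difference of MUT to WT with its 95% confidence interval on each day; open points were not called, and at D11 MUT cells are NFIAn and WT cells NFIAp. Every point is open; the values for Lifr run from -0.00 to 0.13, and Socs2 goes from -0.05 at D5 to -0.38 at D11.

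The domains of WT were compared over D5, D7, NFIAn cells of D9 and D11. In NFIAn cells of D9, pM lacks replicate 2, which is a high-total library in p1 and p2. Il6st was the single gene called, 1 of 7 for pM minus p1, where 6.19% of all genes were, with 0 of 7 for pM minus p2, where 2.46% were, and 0 of 7 for p2 minus p1, where 1.83% were. Il6st averaged 229 in pM and 132 in p1, a log2 difference of 0.82 ± 0.24 (limma adjusted p = 0.0294). Leaving out any of 7 of the 20 libraries ended that call (adjusted p = 0.0582 to 0.155), as did a fit on the compared libraries alone (0.159). For the other 2 pairs of domains, unadjusted p-values under 0.05 were those of Il6st for p2 minus p1 (0.0111) and of Lifr and Socs2 for pM minus p2 (0.00806 and 0.0176), and edgeR and DESeq2 called 0 of 7 as well. Socs3 averaged 547 in pM and 341 in p1, with a log2 difference of 0.67 ± 0.22 (adjusted p = 0.057). Stat3 had 0.77 ± 0.36 in the same direction (0.237). Lifr and Socs2 had the opposite sign, at -0.35 ± 0.14 (0.157) and -0.25 ± 0.11 (0.191). With correlated libraries these 5 genes were all called for pM minus p1, with Lifr and Socs2 lower in pM (adjusted p = 0.0287 and 0.0276). That setting called 2114 of all genes for pM minus p1, against 972 in the main fit. Socs2 in pM was low at D5, at 860 and 912 in WT against 1305 to 1782 in p1 and p2, and not at D11.

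The rest of the pathway was followed through lists of its other parts, to be read against the 46.0% of all genes called between D11 and D5 in MUT and the 48.0% in WT. Among the 6 ligand genes tested of 9, 3 were called lower between D11 and D5 in WT and 0 higher, a share near the 48.0% of all genes. Lif had 4.16 ± 9.09 normalised counts in WT at D11 (SD, n = 6), against 18.6 ± 12.3 at D5 (SD, n = 8), a log2 difference of -2.94 (limma adjusted p = 0.00355). Clcf1 and Cntf were lower too, at -2.23 and -2.05 (adjusted p = 0.0379 and 0.0455), and Ctf1, the gene of cardiotrophin, had -0.25 (0.821). In MUT 3 of the 6 were lower as well, Lif by -2.75, Clcf1 by -2.41 and Ctf1 by -2.14, and Cntf did not pass (adjusted p = 0.345). The highest median of these 4 genes over the days and genotypes was 44.1, for Ctf1 in NFIAp cells of D9. A supply of cytokine from outside the sorted cells was not measured.

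Of 6 further receptor genes, 2 passed the filter and both were higher at D11 in WT. Cntfr, the anchored chain that gives CNTF its specificity, had medians of 560 at D11 and 257 at D5 in WT, and a log2 difference of 1.07 ± 0.31 (limma adjusted p = 0.00338). In MUT its medians were 465 at D11 and 425 at D5, with a difference of 0.37 (adjusted p = 0.316). The difference between the genotypes in this change was -0.69 (95% interval -1.55 to 0.16, adjusted p = 0.709), so Cntfr is not shown to differ between them. Il11ra1, a chain for interleukin 11, was higher at D11 by 0.50 in MUT (adjusted p = 0.012) and 0.72 in WT (0.000525). Osmr and Il6ra, the chains for oncostatin M and interleukin 6, were at or near 0: their medians were under 1 on every day, and neither exceeded 10.1 in any library. Per kilobase of exon, Il11ra1 had a median of 250 in MUT and 292 in WT at D11 and Cntfr 167 and 201, above Lifr at 94.1 and 80.8 and Il6st at 29.5 and 19.0.

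**Figure D5:**
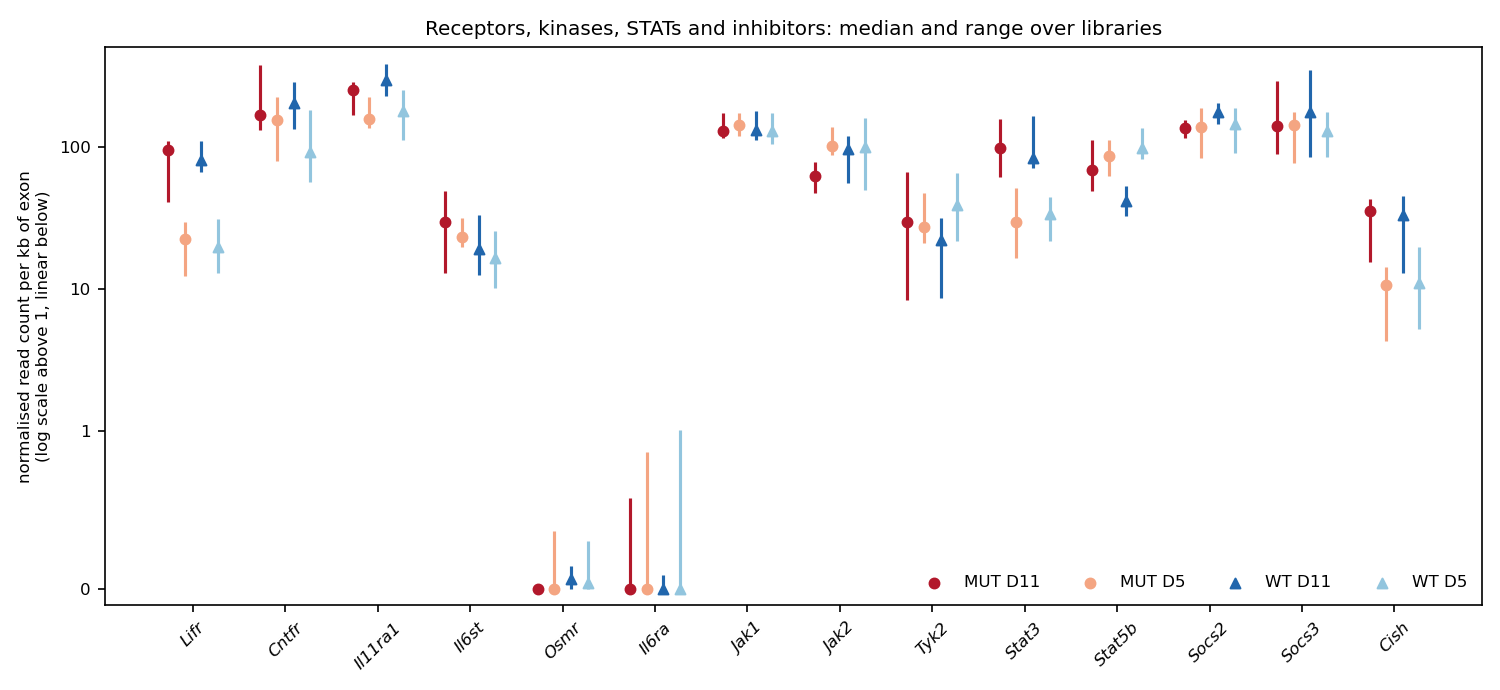
Normalised reads per kilobase of exon for receptor chains, kinases, STATs and inhibitors at D11 and D5, as the median (points) and the range over libraries (lines), on an axis that is logarithmic above 1. Osmr and Il6ra lie at or near 0 in all groups, while Lifr, Stat3 and Cish stand higher at D11 than at D5 in both genotypes.

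Among the other kinases and STATs, 4 of 8 were called lower at D11 in WT and 0 higher, again near the 48.0% of all genes called. Stat5a, Stat6 and Stat5b, which serve other cytokine receptors, had log2 differences of -3.02, -1.79 and -1.24 in WT. Tyk2, the third gp130 kinase, had -0.85 (limma adjusted p = 0.0404). Of 14 inhibitor genes, 1 was called higher and 3 lower. Cish, a relative of Socs2, rose by 1.59 in MUT and 1.47 in WT (adjusted p = 5.71e-05 and 0.000269). Ptpn6, Ptpn11 and Socs6 fell, with differences of -4.86, -0.65 and -0.70 in MUT and -3.82, -0.71 and -0.65 in WT.

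Of 16 tested genes listed as known to respond to STAT3, 4 were called higher and 4 lower at D11 in WT, with 2 higher and 6 lower in MUT, shares near the 46.0% of all genes called in MUT and the 48.0% in WT. S100b, Fos and Cebpd led those that rose in WT, with log2 differences of 4.64, 2.49 and 1.28. Pim1, Timp1 and Myc led those that fell, with -2.08, -1.54 and -1.42. All 3 risers were lower in MUT than in WT at D11, and they were the 3 of 16 called there, where 4.14% of all genes were: S100b at -2.04, Cebpd at -1.15 and Fos at -2.0 (limma adjusted p = 0.017, 0.0229 and 0.0233). Fos had 1788 ± 796 normalised counts in MUT and 7138 ± 2680 in WT at D11 (SD, n = 6 each), and its change from D5 was not shown to differ between genotypes (adjusted p = 0.451). Nor were the changes of S100b and Cebpd, and genotype and gate cannot be told apart at D11. Among 10 listed partners of STAT3 in gliogenesis, Notch1 and Smad1 were higher at D11 in WT by 1.12 and 0.70, and the DNA methyltransferase gene Dnmt1 and Smad4 were lower by -2.10 and -0.84. Smad1 had 0.16 in MUT (adjusted p = 0.485). Of 5 tested genes of the growth hormone and STAT5 axis, Igf1 alone was called in WT, at 2.46.

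Gfap, the astrocyte gene most closely tied to STAT3, was at 0 in most libraries and did not exceed 9.24 in any. Other genes listed as astroglial were high: of 17 tested, 11 were called higher at D11 in MUT and 14 in WT, and Gja1 was lower in both, where 46.0% of all genes in MUT and 48.0% in WT were called in either direction. Nfib, Fabp7 and Nfia had log2 differences of 7.85, 6.81 and 5.72 in MUT and 9.70, 8.59 and 6.55 in WT. Between MUT and WT at D11, 6 of the 17 were lower in MUT and 0 higher, where 4.14% of all genes were called. Aldh1l1 had a median of 52.7 in MUT and 528 in WT, and Aldoc 707 in MUT and 3192 in WT. On the same day the intervals for Lifr and Stat3 between the genotypes are those given above, and genotype and gate cannot be told apart.

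Genes of most similar pattern over the 26 group means were found by Pearson's r among 12010 others, as a description. For Lifr they were Dner, Spock2 and Lamp5 (r = 0.954, 0.947 and 0.944), and for Stat3 Abcd3, Pbxip1 and Vamp2 (0.917, 0.901 and 0.892). For Il6st they were Nisch, Tet3 and Dgcr2 (0.857, 0.853 and 0.847), and for Jak2 Cd164, Vcl and Cnot2 (0.892, 0.884 and 0.882). Socs2 was most like Wls, Plxnc1 and Wdr17 (0.874, 0.821 and 0.818), Socs3 most like Lrrc42, Sphk2 and Itm2c (0.789, 0.782 and 0.78), and Jak1 most like Mfn1, Fzd10 and Lima1 (0.76, 0.746 and 0.726). Among the 7 themselves the closest pair was Jak1 with Jak2 (r = 0.7), then Il6st with Socs3 (0.596), Il6st with Stat3 (0.569) and Lifr with Stat3 (0.539), while Lifr with Jak2 had -0.325. The group means share libraries, day and the high-total sets, so these values describe the table only.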

How the data were processed

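PolyA RNA was sequenced in 66 libraries. The authors deposited 1 table of signal values, reads divided by a size factor per library. They used mm10 and DESeq2, per the submitters' processing notes; the aligner, the counter and whether strand was used are not given in the sources used here. Dividing by what 1 read is worth gave whole numbers within 0.01 for 100% of values, and the read counts recovered in this way from the deposited table served edgeR and DESeq2 as alternatives.

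Tests were run in limma, with its variance trend, on log2 of the value plus a pseudocount of 1, a scale that understates changes of low genes. The model held 26 group means over all 66 libraries and was applied to the 15714 genes that reached 10 in 2 or more libraries. All tests were two-sided, with Benjamini-Hochberg adjustment over those genes. Comparisons across domains average the difference within each domain. MUT D9 p2 has 1 library, assumed to vary like the other groups. No 2 of the 55 within-group library pairs were identical, and none agreed within sampling noise (chi-squared over its degrees of freedom at least 25.5).

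The 7 genes and the lists were chosen with earlier results of these data known. Named genes are the 7, a fixed set of pathway genes, 1 of which is not reported here, up to 3 called genes per list and direction by size in WT D11 minus D5, and the 3 genes most like each of the 7 with a group mean of at least 50, gene models, clones and pseudogenes passed over. Aldoc and Aldh1l1 were named after their values were seen. Positions are from GENCODE M21 (GRCm38), and promoter windows, matched for 6 of the 7 genes, from RefSeq (GRCm38.p6). The alternatives are those of the closing section. The fits were also run on simulated counts, in which libraries were independent and held no high-total set. That run cannot speak to the correlation between the real libraries. Software comprised limma 3.58.1, DESeq2 1.42.0 and edgeR 4.0.16 under R 4.3.3, and matplotlib 3.10.9 under Python 3.11.15.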

Additional observations from a re-analysis of the deposited data

Results flagged for a closer look

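The change from D5 to D11 differed between genotypes, by the test of the difference itself in limma, for 2 genes listed as astroglial. Aldh1l1, a marker enzyme of astrocytes, changed by 0.02 in MUT and 4.50 in WT on the log2 scale, a difference of -4.48 (adjusted p = 0.0079). Aldoc, a glycolytic enzyme high in astrocytes, changed by 0.21 in MUT and 1.96 in WT, a difference of -1.76 (adjusted p = 0.00302). In both, all 6 MUT libraries of D11 were below all 6 WT libraries, and genotype and gate cannot be told apart there.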

How the results depend on the processing

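The number of the 7 genes called was recomputed with edgeR, DESeq2, TMM scaling, a pseudocount of 8, no filter on low values, only the compared groups, correlated libraries, a replicate block, without the 18 libraries of high total, and in 66 fits that each left out 1 library. It did not change in any of them for D11 minus D5 in MUT or in WT, for the gates at D9, for MUT minus WT at D5 and D9, or for the difference of the time changes. With only the compared groups, 2 were called for D11 minus D5 in WT p1, 2 in p2 and 1 in pM, 1 for NFIAn cells of D9 minus D7 and 0 for pM minus p1. All-gene counts were, in the same order, 2550, 4043, 1617, 1357 and 629. With correlated libraries, 2 were called for D7 minus D5, 1 for NFIAn cells of D9 minus D7, 1 for D11 minus D9, 1 for p2 minus p1, 2 for pM minus p2, 5 for pM minus p1 and 1 for the F test by domain. Without the 18 libraries of high total, the counts were 2 in p1, 2 in p2, 4 in pM and 1 for MUT minus WT at D11. All-gene counts were then 5558, 5239, 4284 and 1529. Steps that use D9 rest on replicate 1 alone in each WT D9 group in that setting, so their counts are not given. DESeq2 called 2 for NFIAp cells of D9 minus D7, where it called 2770 of all genes. With 1 library left out, counts ran from 1 to 2 for D11 minus D5 in pM, 2 to 3 for D7 minus D5, 1 to 2 for NFIAn and 1 to 2 for NFIAp cells of D9 minus D7, 2 to 4 for D11 minus D9 and 0 to 2 for pM minus p1. The cause of these changes was not tested. MUT minus WT at D9 gave no value without the 18, nor without the single MUT D9 p2 library.

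With a replicate block the counts were 2 in p1, 3 in p2 and 3 in pM for D11 minus D5, 2 for NFIAp cells of D9 minus D7, 6 for D11 minus D9, 1 for MUT minus WT at D7 and 1 at D11, 1 for p2 minus p1, 2 for pM minus p2 and 5 for pM minus p1. All-gene counts with this block were, in the same order, 4664, 4396, 3601, 2879, 2621, 2275, 3180, 1342, 992 and 2405. Each was above that of the main fit. In 0 of 18 comparisons did every pair of same-numbered libraries correlate above 0.1, a rule that in some comparisons spans days. Within a day, 120 of 163 same-numbered pairs were above 0.1, with a median r of 0.165. Pairs of other numbers had a median r of -0.0994. Of 65 libraries, 63 correlated best with one of their own number on their day. Libraries of the same day and number thus share variation that the main fit does not model, and the labels do not say why.

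Counts over all genes moved by more than 1.5 times in 16 comparisons, here with the lowest and highest count over the alternatives other than single libraries. They were 4360 (2550 to 5558) for WT D11 minus D5 in p1, 3205 (1617 to 4284) for WT D11 minus D5 in pM, 3073 (1333 to 3798) for D7 minus D5, 2261 (872 to 2781) for NFIAn cells of D9 minus D7, 2331 (1389 to 2879) for NFIAp cells of D9 minus D7, 1593 (714 to 2621) for D11 minus NFIAp cells of D9, 32 (7 to 543) for the gates at D9, 72 (11 to 798) for MUT minus WT at D5. They were further 319 (37 to 2275) for MUT minus WT at D7, 110 (28 to 784) for MUT minus WT at D9 NFIAn, 650 (107 to 3180) for MUT minus WT at D11, 121 (14 to 182) for the difference of the time changes, 288 (126 to 1342) for p2 minus p1 in WT, 386 (222 to 992) for pM minus p2 in WT, 972 (629 to 2405) for pM minus p1 in WT and 140 (90 to 463) for the F test by domain. Of 3108 alternative values of single pathway genes, 44 gained and 49 lost a call and 0 changed sign after being called. Depth was 8.74 megareads at the lowest, and all 7 genes had at least 26.8 normalised reads in every library.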
